A study of Drosophila melanogaster with 24 samples.

Results

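The Cpr genes of *Drosophila melanogaster* encode cuticle proteins that carry the Rebers-Riddiford domain, a stretch of protein that binds chitin. Their symbols are Cpr followed by the cytological band of the gene and, where a band holds several, a letter. Every row of the 2 count tables whose symbol is Cpr followed by a digit was taken, which gave 70 genes of the 16727 in the tables. In the Release 6 annotation they lie in 33 bands, 21 of which hold 1 gene, and the largest clusters are 49A with 8 genes and 47E and 65A with 7 each. Chromosome arm 3L carries 35 of the genes, 2R carries 21, 2L and 3R carry 5 each and the X chromosome carries 4.

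Insect cuticle is a layered sheet of chitin fibres and proteins that the epidermis secretes onto the body surface, the foregut, the hindgut and the tracheae. Rebers-Riddiford proteins bind the chitin fibres, and which of them a region makes helps to set whether its cuticle is hard or flexible. Many members are used in the embryo, the larva or the pupa, so an adult is not expected to transcribe the whole family, and the corneal lens over each facet of the eye is itself a cuticle that contains Cpr66D and Cpr72Ec.

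The flies were adult w1118, a white-eyed laboratory strain, of 5 to 7 days by the labels, and all were reared on cornmeal medium. Males and females were kept separately for 7 days, by the methods, on regular diet (RD) or on high fat diet (HFD), which was RD with 20% coconut oil. In the methods those 7 days follow eclosion and time on cornmeal, so the label age, if taken at collection, conflicts with them. The 8 groups were male head RD, male head HFD, female head RD, female head HFD, male body RD, male body HFD, female body RD and female body HFD, with 3 libraries each, and a body was the fly without its head. By the labels 1 library came from about 100 heads or from 10 bodies (15 by the methods), so a value is a mean over pooled flies, and no allele or transgene differed between the groups. Males and females were deposited in separate count tables. Sex and anything else that may have differed between the tables cannot be told apart.

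The 24 libraries held 13.4 M to 25.7 M counts on genes, and the Cpr genes took 0.0177% to 0.154% of them. Levels are given as CPM (counts scaled by library size and TMM factors) when 1 gene is followed across libraries, and as TPM, which also divides by the deposited gene length, when levels of different genes are compared. The tissue labels held in that ninaE, the main rhodopsin of the eye, was at 19169 to 35206 CPM in heads and at 8.59 to 1091 CPM in bodies. The highest body value came from male body RD 3, where the other RD male bodies read 16.2 and 21.2 CPM, and male body HFD 3 read 159 CPM. Male head HFD 3 stood apart in the opposite sense: the Cpr genes took 0.0551% of its counts against 0.140% to 0.154% in the other 5 male heads, while the neuronal gene elav was at 661 CPM there against 145 to 340. Where leaving out either library changed a call or a value materially, both values are given.

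A few genes carried most of the transcripts of the family, the 5 highest of each library taking 72.5% to 92.6% of its TPM. Of the 70 genes, 43 reached a mean of 1 TPM in at least 1 group, 22 reached 10 TPM and 5 reached 100 TPM, while 27 stayed under 1 TPM in every group. No count fell on Cpr57A, Cpr65Ax1 or Cpr67Fb in any library, which allows up to 3 counts in each, or 0.117 to 0.224 CPM. Reads were found in all 24 libraries for 25 genes. Cpr65Ax1 and Cpr65Ax2, and Cpr67Fa1 and Cpr67Fa2, are pairs of copies whose shared reads may have been split or dropped, and the exons of Cpr47Ea, Cpr57A, Cpr65Au, Cpr67Fb and Cpr73D overlap an exon of another gene, so their counts are uncertain to that extent.

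Cpr65Au was the highest Cpr gene in every library. Its mean level was 2721 ± 311 TPM in male head RD (SD, n = 3), 1740 ± 41.1 in female head RD, 459 ± 49.9 in male body RD and 145 ± 4.34 in female body RD. That was 61.6%, 58.1%, 54.5% and 32.0% of the TPM of the family in those groups. The median over the 7 genes of band 65A was at most 0.243 TPM in the RD groups, so the level belonged to 1 gene and not to the cluster.

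The genes that followed differed between heads and bodies. In male head RD the next were Cpr72Ec at 607 ± 136 TPM and Cpr49Ag at 297 ± 79 TPM, and in female head RD they were Cpr67B at 359 ± 24.2 TPM and Cpr49Ag at 263 ± 28.0 TPM. In male body RD Cpr49Ae (57.2 ± 9.71 TPM), Cpr49Ab (57.0 ± 10.3 TPM), Cpr62Bb (56.9 ± 7.19 TPM) and Cpr67B (52.9 ± 5.65 TPM) lay within 1 SD of each other. In female body RD Cpr67B at 96.8 ± 11.3 TPM and Cpr49Ab at 58.0 ± 3.12 TPM came next. The remaining genes of the 10 highest were Cpr47Ee and Cpr60D, whose highest RD group means were 48.4 and 43.2 TPM, in heads, and Cpr51A, which was highest in male bodies. The summed level of the family on RD was 4408 ± 368 TPM (male heads), 2996 ± 32 TPM (female heads), 841 ± 69 TPM (male bodies) and 456 ± 42.5 TPM (female bodies), without overlap between these 4 groups.

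**Figure D1:**
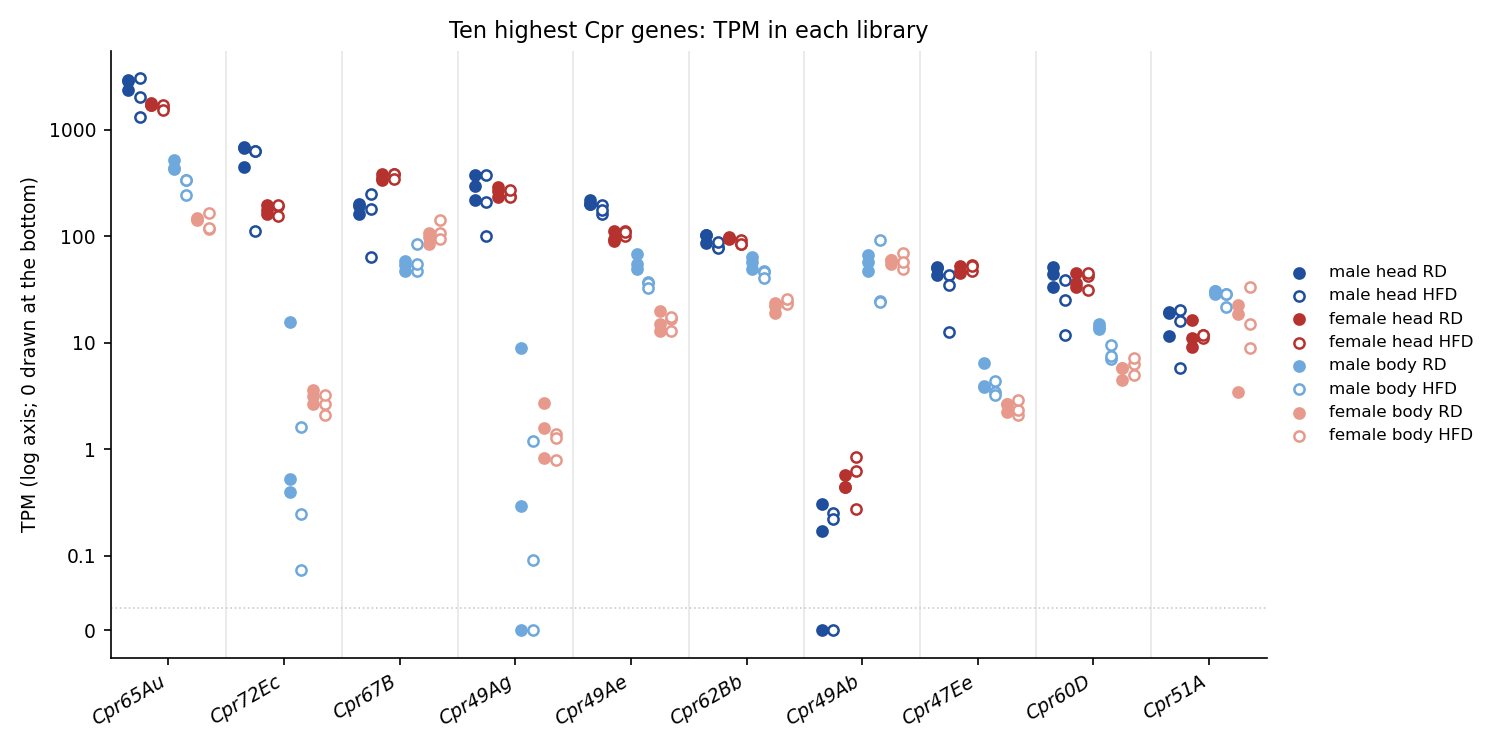
TPM (log axis, 0 drawn at the bottom) of the 10 Cpr genes with the highest mean over the RD groups, with 1 point per library, filled for RD and open for HFD, dark for heads and light for bodies, blue for males and red for females. Cpr65Au lies highest throughout, Cpr49Ab is high in bodies and near 0 in heads, and Cpr72Ec and Cpr49Ag are high in heads and low in bodies, where male body RD 3 is the highest library of both.

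Heads and bodies were compared within each sex and diet by edgeR's quasi-likelihood test, with p adjusted over all genes tested and a threshold of 0.05. A gene past it is said to be called. In bulk tissue, more transcript per cell and more cells that make it cannot be told apart. On RD, 24 of the 29 Cpr genes that passed the low-count filter in males were called (15 higher in the head, 9 higher in the body), where 73.5% of all genes tested were called (30.7% and 42.8%). In females 26 of 32 were called (22 and 4), against 86.9% of all genes (41.3% and 45.5%). The median log2 fold change of the tested Cpr genes, head against body, was 0.94 in males and 2.03 in females, against -0.18 and -0.10 over all genes tested. The size of these medians depended on which genes were tested. With 1 library left out the male value ran from 0.17 (without male head RD 2) to 1.06 (without male body RD 3), with 0.22 without male head RD 1, 0.35 without male body RD 1, 0.39 without male head RD 3 and 0.61 without male body RD 2. Over every Cpr gene with at least 1 count it was 0.21 in males (64 genes) and 0.07 in females (67 genes), where all genes gave -0.23 and 0.08. On HFD 19 of 27 were called in males (12 and 7, against 63.3% of all genes, 29.3% and 34.0%) and 27 of 34 in females (20 and 7, against 85.3%, 40.6% and 44.7%).

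The head genes with the largest folds in both sexes were Cpr72Ec of the corneal lens, 2 neighbours in band 49A (Cpr49Af and Cpr49Ag) and Cpr11B on the X chromosome. Cpr72Ec read 304, 395 and 390 CPM in male head RD and 0.574, 0.396 and 16.2 CPM in male body RD. In females it read 123, 106 and 127 CPM in heads and 2.62, 2.0 and 2.38 CPM in bodies. Heads lay far above bodies in both sexes, and the male body library with the raised ninaE was also the one with the raised Cpr72Ec. The log2 fold change was 6.08 ± 1.31 (SE) in males, adjusted p = 0.00355, and 5.72 ± 0.12 in females, adjusted p = 2.57e-09. Without male body RD 3 the male value became 9.80.

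Cpr49Ag read 115, 57.1 and 74.7 CPM in male head RD against 0, 0.132 and 4.14 CPM in male body RD. The highest of those body values was again that of male body RD 3. Its log2 fold change was 5.90 ± 1.10 in males (adjusted p = 0.00163; 10.49 without male body RD 3) and 7.14 ± 0.23 in females (adjusted p = 1.69e-08). Cpr49Af, the gene beside it, differed by 5.99 ± 0.67 in males (8.50 without that library) and by 6.41 ± 0.45 in females (7.33 without female body RD 4). Cpr11B differed by 5.17 ± 0.90 in males (10.81 without male body RD 3) and by 8.19 ± 0.48 in females (9.98 without female body RD 4). On HFD no read of Cpr49Af was counted in the 3 male bodies, so its level in male heads, 13 CPM, was at least 200.4-fold higher when 3 counts over the group are taken as the limit.

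Among head genes of lower level, Cpr62Bc was called in both sexes, at 3.95 ± 0.59 in males (5.53 without male body RD 3) and 1.32 ± 0.42 in females, where its levels stayed under 3.02 CPM and the call was lost on HFD (0.45 ± 0.29, adjusted p = 0.171). Cpr65Au was higher in the head by 1.91 ± 0.15 on the log2 scale in males and by 3.46 ± 0.08 in females. Cpr66D, the other lens protein gene, read 1.76 to 3.93 CPM in male head RD and 2.31 to 2.58 CPM in male body RD, which overlap. In females it read 4.19 to 7.98 CPM in heads and 1.65 to 3.82 CPM in bodies, a log2 fold change of 1.21 ± 0.36 (adjusted p = 0.0119). Of 2 other lens genes, retinin read 122 to 286 CPM in heads and at most 9.65 CPM in bodies, with that highest value in male body RD 3, and Cry (Crys, drosocrystallin) read 1.29 to 5.48 CPM in heads.

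The body genes were led by Cpr49Ab, which stands in the same cluster as the head genes Cpr49Af and Cpr49Ag. Cpr49Ab read 30.1, 39.5 and 34.8 CPM in male body RD against 0.123, 0.0585 and 0 CPM in heads, and 25.9, 26.7 and 24.3 CPM in female body RD against 0.181, 0.225 and 0.167 CPM. Every body library lay above every head library. The log2 fold change, head against body, was -8.97 ± 0.41 in males and -6.98 ± 0.18 in females (adjusted p = 6.20e-07 and 5.81e-09), and it was -8.26 and -6.72 on HFD. Leaving out 1 library at a time gave -9.79 (without male head RD 1) to -8.36 (without male head RD 3) for the male RD value.

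Cpr56F was a body gene in both sexes as well, at -5.32 ± 0.24 in males and -3.66 ± 0.63 in females. In males Cpr50Ca (-6.66 ± 0.30), Cpr66Cb (-7.07 ± 0.58, or -8.95 without male head RD 3) and Cpr92A (-5.82 ± 0.68, or -7.71 without male head RD 1) were also higher in the body, and in females these 3 did not pass the filter on RD. In females Cpr78E was higher in the body, at -3.40 ± 0.55 (-4.14 without female head RD 3), at about 1 CPM. On HFD each of these genes kept its call and direction in the sex named. The value of Cpr92A in males on HFD was -3.74 ± 0.93, and it became -7.98 without male head HFD 4, the 1 male head on HFD with reads of it. That of Cpr62Bc, 4.13 ± 0.73, became 7.13 without male body HFD 2.

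**Figure D2:**
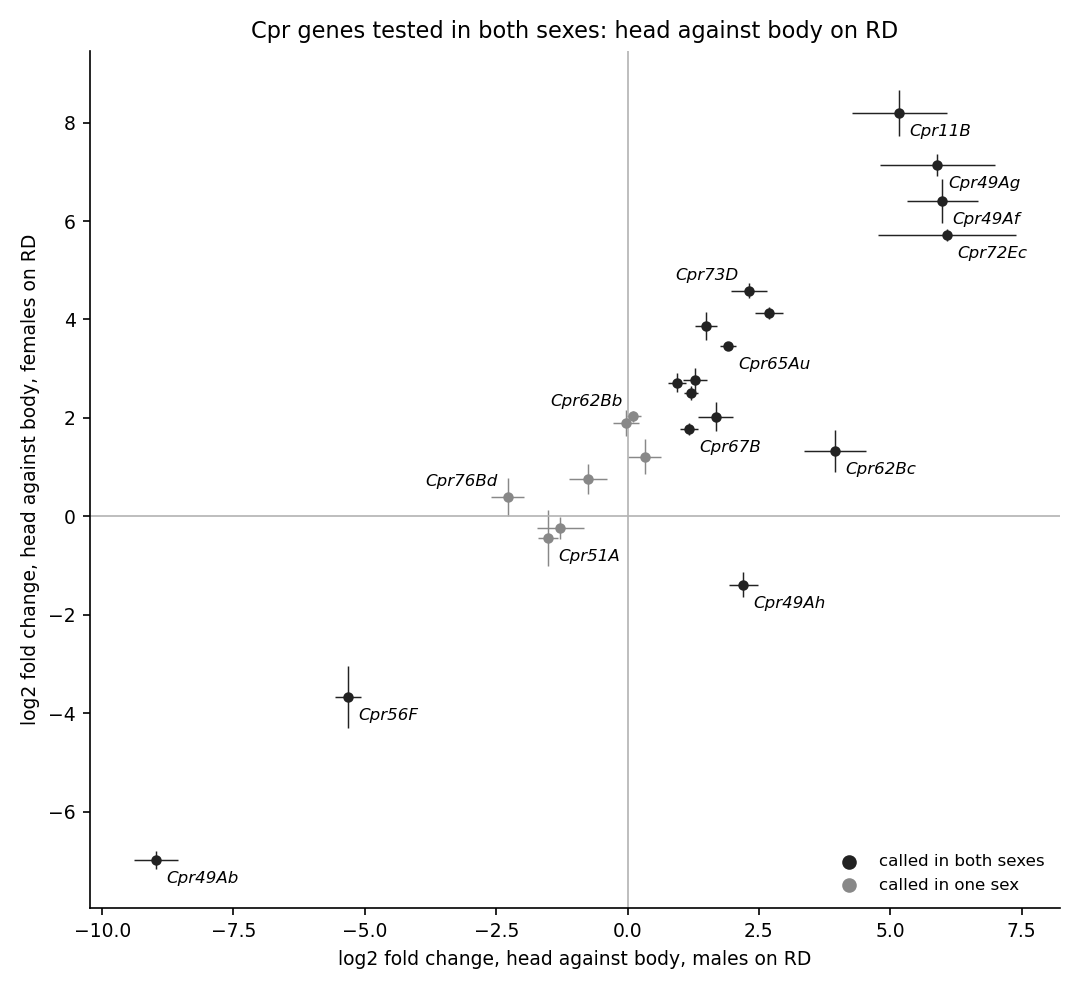
Log2 fold change of head against body on RD in males (horizontal axis) and in females (vertical axis) for the 24 Cpr genes tested in both sexes, with standard errors as bars, black where called in both sexes and grey where called in 1. Of the 17 genes called in both, 16 lie in the same direction, and Cpr49Ah, at 2.20 in males and -1.39 in females, lies in the opposite quadrant.

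The 72E band holds 3 genes within 5 kilobases, and their heads differed by sex in opposite directions. Cpr72Ea (3L:16362603-16363750) and Cpr72Eb (3L:16364899-16365707) lie on the plus strand, and Cpr72Ec (3L:16365894-16367340, dm6) follows on the minus strand. In heads on RD, Cpr72Ea read 3.40, 2.81 and 1.56 CPM in females and 0.0613, 0.0585 and 0.101 CPM in males. Cpr72Eb read 0.861, 0.899 and 0.837 CPM in females and 0.123, 0.0585 and 0 CPM in males. Both were thus far higher in every female head, whereas Cpr72Ec, given above, was higher in every male head. The log2 fold changes, male against female, were -4.99 ± 0.50 for Cpr72Ea, -3.78 ± 0.56 for Cpr72Eb and 1.62 ± 0.14 for Cpr72Ec, with adjusted p of 0.00572, 0.0159 and 0.00398. In females both Cpr72Ea and Cpr72Eb were head genes, at 4.77 and 5.38 on the log2 scale against the body on RD (Cpr72Eb at 7.16 without female body RD 4). Male heads on RD held only 1 to 2 counts per library of Cpr72Ea and 2, 1 and 0 counts of Cpr72Eb. Female heads on RD held 19, 16 and 15 counts of Cpr72Eb. The size of both differences thus rests on few reads.

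On HFD the female-high pair was called again, at -4.90 ± 0.62 for Cpr72Ea and -3.76 ± 0.61 for Cpr72Eb (adjusted p = 0.0212 and 0.0397). The range of adjusted p over the alternatives was 2.10e-05 to 0.141 for Cpr72Ea and 0.00359 to 0.204 for Cpr72Eb, and both calls were lost without male head HFD 4 or any of the 3 female head HFD libraries. Cpr72Ec read 410, 72.4 and 350 CPM in male head HFD and 123, 105 and 131 CPM in female head HFD. Its groups overlapped through male head HFD 3, with a log2 difference of 1.26 ± 0.57 (adjusted p = 0.219). Without that library it was 1.67, with an adjusted p of 0.0113, within a range of 0.0113 to 0.451 over the alternatives. The call on Cpr72Eb in heads on RD was lost when male head RD 2 or any of the 3 female head RD libraries was left out, with adjusted p of up to 0.0879. Leaving out male head RD 1 gave -4.68 and leaving out male head RD 3 gave -3.17.

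**Figure D3:**
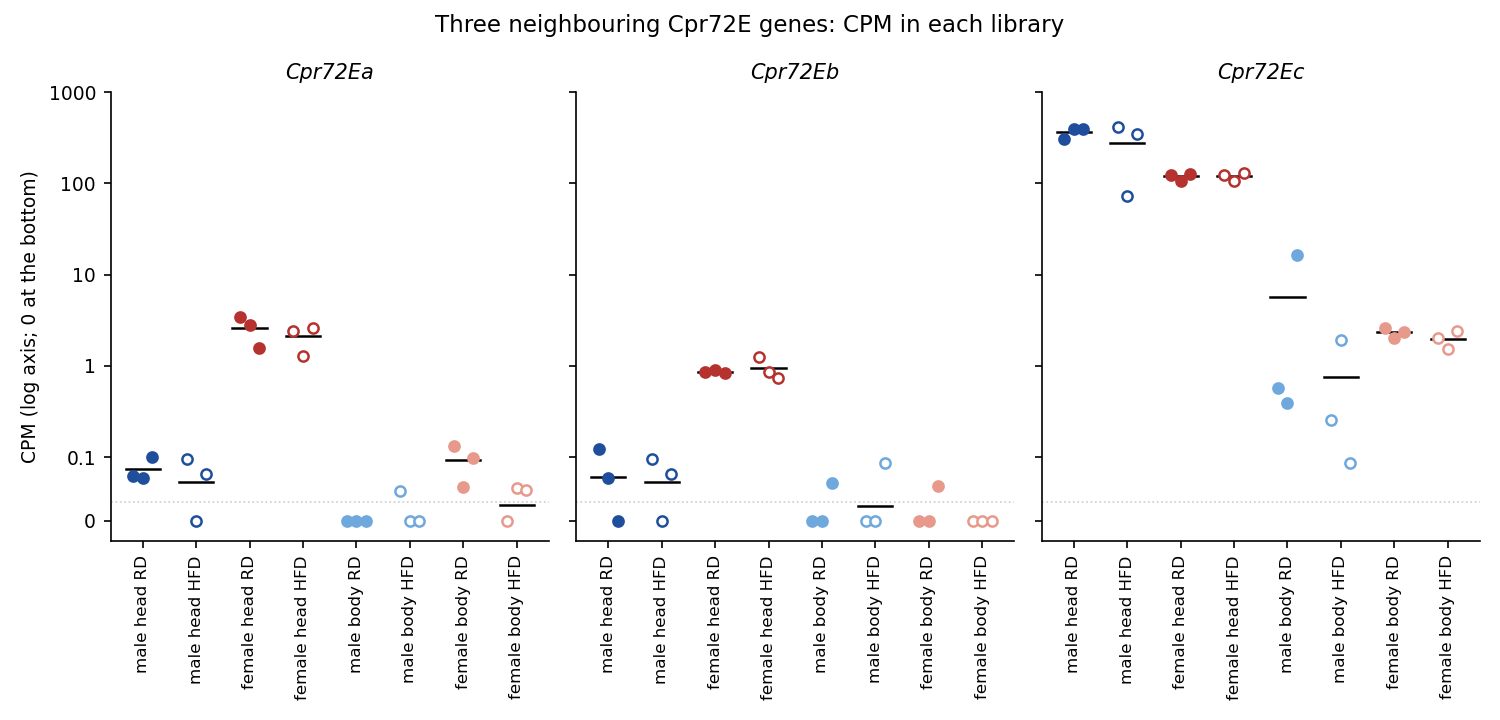
CPM (log axis, 0 drawn at the bottom) of Cpr72Ea, Cpr72Eb and Cpr72Ec in the 3 libraries of each group, with a line at the group mean and open points for HFD. Female heads lie above male heads for Cpr72Ea and Cpr72Eb and below them for Cpr72Ec, except that male head HFD 3, at 72.4 CPM, lies below the female heads.

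Over the family, 7 of the 27 Cpr genes tested in heads on RD differed between males and females, 4 higher in males and 3 higher in females, where 7.76% of all genes tested were called (3.41% and 4.35%). Beside the 72E genes these were Cpr76Bc, Cpr49Ae and Cpr65Au, higher in males, and Cpr67B, higher in females. Cpr67B read 187, 157 and 158 CPM in female heads and 95.1, 65.2 and 75.6 CPM in male heads, a log2 difference of -1.08 ± 0.16 (adjusted p = 0.0159). Cpr49Ae read 112, 96.4 and 100 CPM in male heads and 53.5, 48.8 and 59.4 CPM in female heads, at 0.94 ± 0.11 (adjusted p = 0.00958). Cpr76Bc read 11.7, 10.8 and 14.3 CPM in male heads and 5.58, 6.41 and 5.36 CPM in female heads, at 1.10 ± 0.16 (adjusted p = 0.0149). Cpr65Au differed least, at 0.51 ± 0.11 (adjusted p = 0.0376). The libraries of the sexes did not overlap for these 4 genes on RD. Over the alternatives the adjusted p on RD reached 0.0882 for Cpr67B, 0.0756 for Cpr49Ae, 0.0986 for Cpr76Bc and 0.165 for Cpr65Au, whereas Cpr72Ea and Cpr72Ec kept their calls in all of those run, up to 0.0378 and 0.0386. On HFD edgeR called none of the 4. The values there were -1.25 for Cpr67B (adjusted p = 0.168) and 0.69 for Cpr49Ae (adjusted p = 0.111). Cpr76Bc was at 0.55 (adjusted p = 0.469) and Cpr65Au at 0.32 (adjusted p = 0.465).

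The number of calls in heads depended on single libraries. On RD it was 14 without male head RD 1, 6 without male head RD 2, 4 without male head RD 3, 2 without female head RD 2 or 3 and 3 without female head RD 4. On HFD 2 of 30 were called, against 1.78% of all genes tested (0.447% higher in males and 1.33% in females), and the count was 8 without male head HFD 2, 3 without male head HFD 3 and 0 without male head HFD 4 or any of the 3 female head HFD libraries. Directions did not change in any of these fits for the 7 genes. Photoreceptor genes summed to 33245 to 37839 CPM in male head RD and 27373 to 31529 CPM in female head RD, and neuronal genes to 3174 to 4797 and 2944 to 3168 CPM, and the part of these differences in the results was not tested.

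In bodies the sexes differed in most genes, and so did the Cpr genes. On RD 21 of the 28 Cpr genes tested were called, 19 higher in males and 2 higher in females, where 84.4% of all genes tested were called (49.3% and 35.1%). The median log2 difference of the tested Cpr genes was 1.52 (0.88 over the 34 tested without male body RD 3), against 0.40 over all genes tested. On HFD 21 of 31 were called (16 and 5), against 75.6% of all genes (43.1% and 32.4%), with medians of 0.84 and 0.23. Over every Cpr gene with at least 1 count the median was 0.32 on RD (67 genes) and -0.11 on HFD (63 genes), where all genes gave 0.53 and 0.33. The sign on HFD thus differed between the filtered genes and the wider set. Male bodies carried testis genes at 1862 to 3783 CPM summed over 5 markers, against at most 0.437 CPM in female bodies, and female bodies carried ovary and eggshell genes at 1447 to 2667 CPM summed over 6 markers, against at most 15 CPM in male bodies. The part of these organs in the Cpr differences was not tested.

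Cpr50Ca had the largest difference among the Cpr genes called on RD. It read 46.8, 31.7 and 29.6 CPM in male body RD and 0.399, 0.466 and 0.388 CPM in female body RD, and it was at or under 0.352 CPM in every head library. It was thus high in 1 kind of library only, the male body, on both diets. Its log2 difference was 6.30 ± 0.25 on RD (adjusted p = 1.60e-08) and 6.18 ± 0.25 on HFD (adjusted p = 8.09e-07). Cpr50Cb, its neighbour in band 50C, read at most 1.95 CPM in any library.

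Cpr56F read 20.6, 18 and 21.3 CPM in male body RD and 1.77, 1.86 and 0.631 CPM in female body RD, at 3.70 ± 0.32. Cpr76Bd read 4.82, 4.29 and 3.99 CPM in male body RD and 0.577, 0.512 and 0.388 CPM in female body RD, at 3.03 ± 0.26. Both were higher in every male body. Cpr76Bc, the adjoining gene in band 76B, differed by 3.44 ± 0.35 and Cpr92A by 3.33 ± 0.60 (4.21 without female body RD 2), at levels of 4.07 to 5.67 and 1.06 to 1.95 CPM in male body RD. The adjusted p of these 4 genes ran from 3.25e-06 to 0.000559, and all 4 were called in the same direction on HFD, at 3.20, 3.19, 3.77 and 4.27 (Cpr92A at 5.96 without female body HFD 4). Cpr65Au, the leading gene, was also higher in male bodies, at 2.03 ± 0.11.

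Against this direction stood Cpr49Ah, which read 3.90, 4.75 and 5.78 CPM in female body RD and 0.402, 0.264 and 0.420 CPM in male body RD. Female bodies were higher in every library, with a log2 difference, male against female, of -3.80 ± 0.30 on RD (adjusted p = 1.91e-06) and -3.63 ± 0.33 on HFD (adjusted p = 3.54e-05). Cpr67B was higher in female bodies by a small margin on RD, at -0.50 ± 0.12 (adjusted p = 0.00333, or 0.0705 when only genes with at least 10 counts in every library were kept), which was not called on HFD (-0.48 ± 0.26, adjusted p = 0.126, with a range of 0.0236 to 0.442 over the alternatives). On HFD Cpr65Ea, Cpr62Bc, Cpr64Ad and Cpr65Av were called higher in female bodies besides Cpr49Ah.

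Cpr65Ea was detected in female bodies and in no male body. It read 7.54, 6.52 and 0 CPM in female body RD, 11.5, 1.79 and 4.49 CPM in female body HFD, and at most 0.225 CPM in heads. Taking 3 counts over a group as the limit for the male bodies, it was at least 80.7-fold higher in female bodies on RD and at least 91.2-fold higher on HFD. It did not pass the filter for the RD test. The library without reads, female body RD 4, also stood apart in the chorion gene Cp36, at 0.340 CPM against 56.3 to 418 CPM in the other 5 female bodies, and in Cpr51A, at 1.16 CPM against 2.89 to 11.6 CPM. The part of egg stage in these values was not tested.

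**Figure D4:**
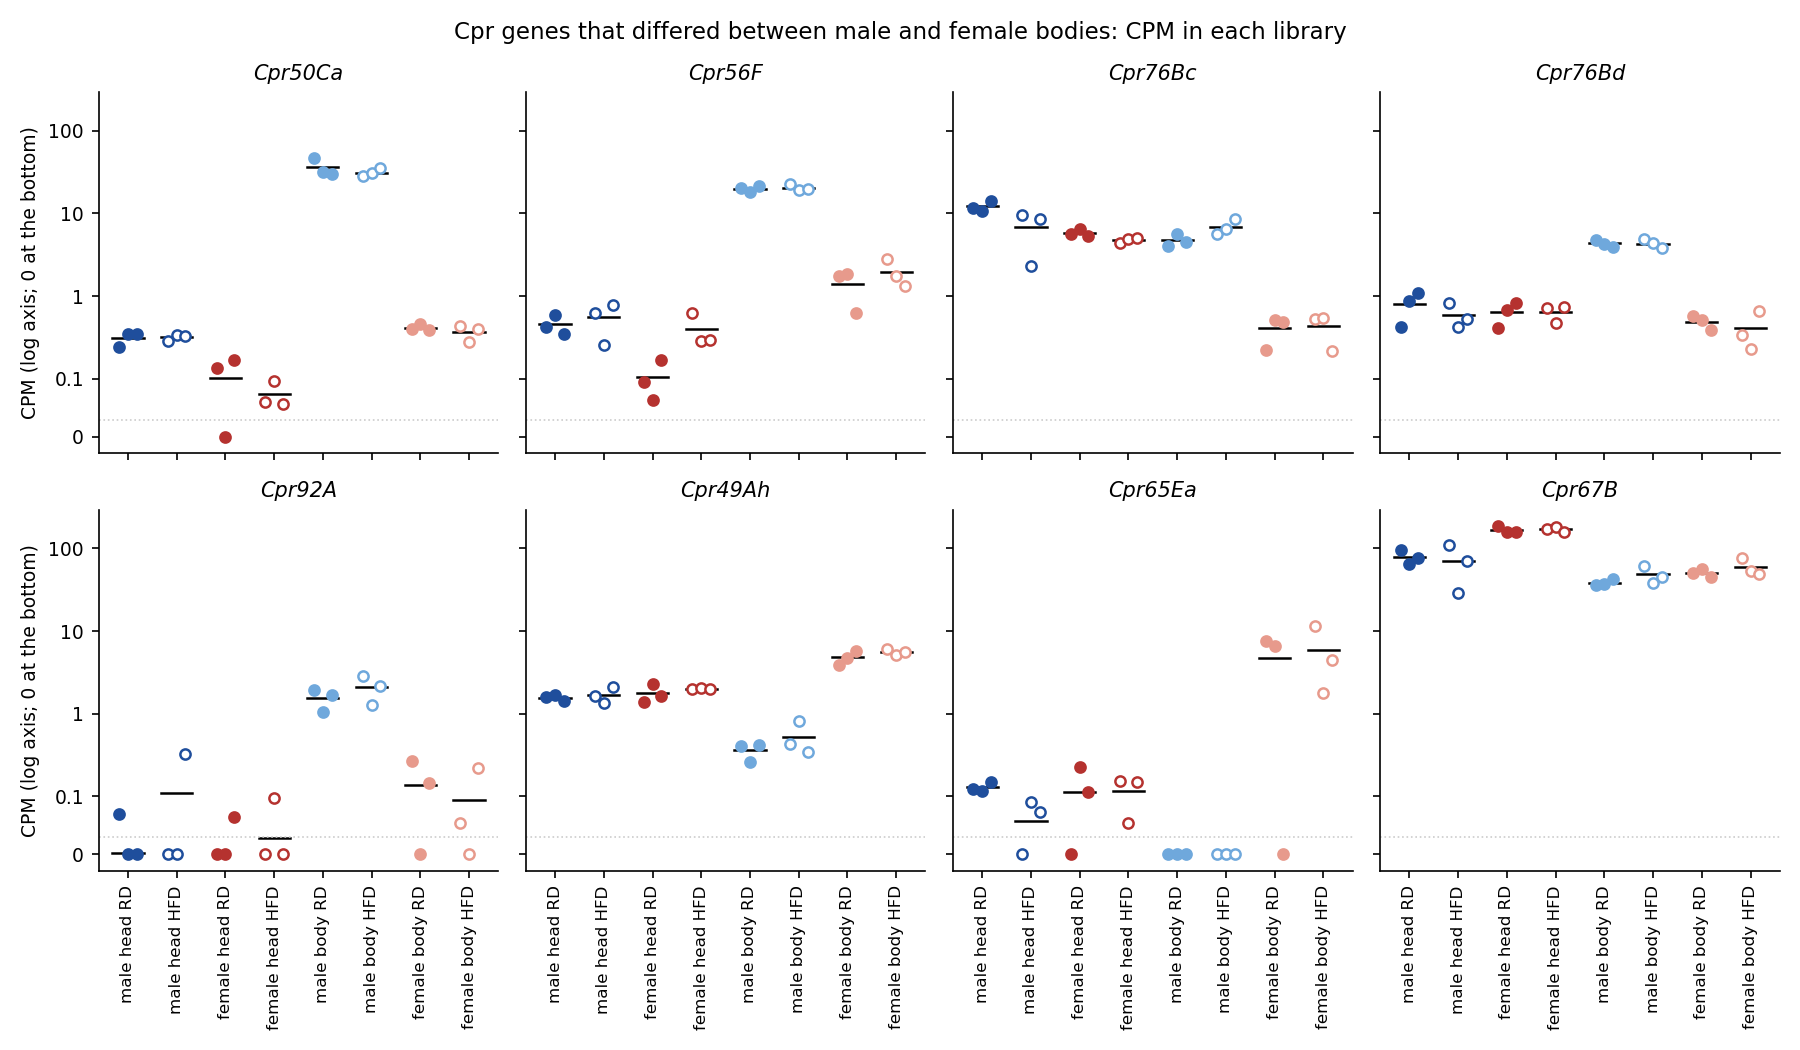
CPM (log axis, 0 drawn at the bottom) of 8 Cpr genes in the 3 libraries of each group, with a line at the group mean and open points for HFD. Cpr50Ca, Cpr56F, Cpr76Bd and Cpr92A are highest in male bodies, Cpr49Ah and Cpr65Ea in female bodies, with Cpr65Ea at 0 in female body RD 4 and in the 6 male bodies, and Cpr67B differs little between bodies.

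Whether the sex difference itself differed between head and body was tested as an interaction. On RD 15 of 39 Cpr genes were called, where 65.1% of all genes tested were called. The male against female log2 difference was lower in the head than in the body for 12 and higher for 3 (30.9% and 34.2% of all genes tested). On HFD 20 of 41 were called (14 and 6), against 47.4% of all genes (29.3% and 18.1%). Cpr49Ah gave the clearest contrast, since its heads read 1.41 to 1.70 CPM in males and 1.41 to 2.30 CPM in females, which overlap, beside the gap of -3.80 in bodies. It was also the 1 gene of the 17 called in both sexes on RD whose head and body differed in opposite directions, at 2.20 ± 0.28 in males (adjusted p = 0.000179) and -1.39 ± 0.25 in females (adjusted p = 0.000778). Its interaction was 4.01 ± 0.40 on RD (adjusted p = 1.99e-06) and 3.23 ± 0.42 on HFD. Cpr62Bb behaved in the opposite way, at 39.5 to 40.7 CPM in male heads and 42.9 to 45.6 CPM in female heads but 35.2 to 48.0 CPM in male bodies and 9.95 to 12.2 CPM in female bodies, with an interaction of -1.51 ± 0.18 (adjusted p = 1.1e-05). Cpr65Au (-1.13 ± 0.17), Cpr76Bc (-1.96 ± 0.38) and Cpr73D (-1.88 ± 0.37) had the same sign. Under the other settings the signs and calls held and some sizes grew by over 1.5 times. Among genes with at least 10 counts in every library the values were -1.91 for Cpr65Au and -2.28 for Cpr62Bb. The setting moved the median of all genes by -0.077, but it also changed which genes the median was taken over. That median thus does not give the change of scale for a gene kept by both filters, and the part of scale in these filtered values was not tested. The sizes on RD did depend on the scaling. Over the same 39 Cpr genes the median interaction was -1.11 in the main fit, -1.66 with RLE size factors and -1.59 with TMM over all 24 libraries. Without male body RD 3 the RD count was 18, and without male head HFD 3 the HFD count was 18.

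The comparison of HFD with RD, the question of the study, called no Cpr gene in any of the 4 pairs of groups. The numbers tested were 24 and 30 in the heads of males and females and 25 and 33 in their bodies, and the share of all genes called was 0.0%, 0.00983%, 0.0% and 0.0% in the same order. DESeq2 and limma-voom called no Cpr gene either. The paper, which names no tool for its test, reports genes past an adjusted p of 0.05 in all 4 comparisons. The calls here over all genes are thus far fewer than its own, and the cause was not tested. At an unadjusted p under 0.05 male heads held 1 Cpr gene and female heads 3 (1.42% and 2.76% of all genes tested) and male and female bodies 4 and 0 (3.79% and 3.48%), and all of these 8 were lower on HFD, a direction that held 0.943%, 1.16% and 2.08% of all genes tested in the first 3. The median log2 fold change of the tested Cpr genes was -0.26 and -0.07 in the heads of males and females and -0.08 and 0.21 in their bodies, against -0.02, -0.01, 0.03 and 0.0012 over all genes tested. Leaving out 1 library moved these medians. In male heads the median stayed below 0, at -0.48 when male head HFD 2 was dropped and -0.02 when male head HFD 3 was. It was 0.0028 in female heads without female head RD 4, 0.09 in male bodies without male body HFD 3 or 4 and 0.00039 without male body RD 3, and in female bodies -0.02 without female body HFD 2 and 0.0063 without female body RD 4. Over every Cpr gene with at least 1 count the female body median was 0.02 (66 genes). In male heads 15 of the 20 genes with a mean of at least 1 CPM on RD were lowest in male head HFD 3 among the HFD libraries, so that the family value there rests largely on 1 library: the summed TPM was 3787, 2017 and 4573 on HFD against 3985, 4590 and 4650 on RD.

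Cpr100A was the 1 gene below the unadjusted limit in 3 of the 4 comparisons. In male heads it read 11.8, 12.9 and 9.81 CPM on RD and 6.10, 3.84 and 3.39 CPM on HFD. In female heads it read 8.25, 7.64 and 7.59 CPM on RD and 6.83, 5.00 and 4.82 CPM on HFD. In male bodies it read 4.71, 6.66 and 4.09 CPM on RD and 2.98, 2.89 and 2.25 CPM on HFD. In each of these the HFD libraries lay below the RD libraries without overlap, whereas in female bodies they overlapped, at 0.745 to 1.51 CPM on RD and 1.11 to 1.52 CPM on HFD. Library sets that do not overlap in the lower direction made up 4.36%, 3.06% and 5.95% of all genes tested in the first 3 comparisons.

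By edgeR the log2 fold change of Cpr100A in heads was -1.35 ± 0.30 for males (adjusted p = 0.809) and -0.50 ± 0.15 for females (adjusted p = 1.0). In bodies it was -0.92 ± 0.28 for males (adjusted p = 0.944) and 0.21 ± 0.32 for females (adjusted p = 0.946). Over the alternatives the adjusted p ran from 0.0692 to 1.0 in male heads, from 0.350 to 1.0 in female heads and from 0.0686 to 1.0 in male bodies, so that none passed. Leaving out male head HFD 3 gave -1.25 in male heads. The study had picked this gene for RT-PCR in male heads from its top-ranked diet genes in the same libraries. The values of Cpr100A in these libraries are thus not independent evidence. The RT-PCR itself used RNA from another batch of flies. For heads the paper reports that the genes tested either changed significantly or went in the direction seen by sequencing. The RT-PCR value of Cpr100A is not given here. Its response did not differ between the sexes past the threshold (interaction -0.84 ± 0.32 in heads, adjusted p = 0.907, and -1.08 ± 0.45 in bodies, adjusted p = 1.0). Among the interactions of diet with sex or tissue, 0 Cpr genes were called by edgeR, DESeq2 or limma-voom, and at an unadjusted p under 0.05 there were 1 in heads, 3 in bodies, 3 in males and 1 in females (1.24%, 3.18%, 3.14% and 3.07% of all genes tested).

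Besides Cpr100A, no overlap between HFD and RD was seen for Cpr60D, Cpr62Bb and Cpr76Bc in male heads, Cpr62Bb, Cpr64Ac and Cpr76Bc in female heads, and Cpr49Ae, Cpr60D and Cpr65Au in male bodies, in each case with HFD lower. Cpr49Ae read 44.0, 55.6 and 46.2 CPM in male body RD and 31.1, 35.1 and 32.0 CPM in male body HFD, a log2 change of -0.58 ± 0.15 (adjusted p = 0.944, with a range of 0.0611 to 1.0 over the alternatives). Cpr60D in male bodies was at -0.71 ± 0.20 and Cpr65Au at -0.47 ± 0.18, with the same adjusted p of 0.944. Cpr64Ac in female heads was at -0.59 ± 0.23 (adjusted p = 1.0). None of these passed the threshold under any alternative with an adjusted p, and the adjusted p does not show that the diets gave equal levels.

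**Figure D5:**
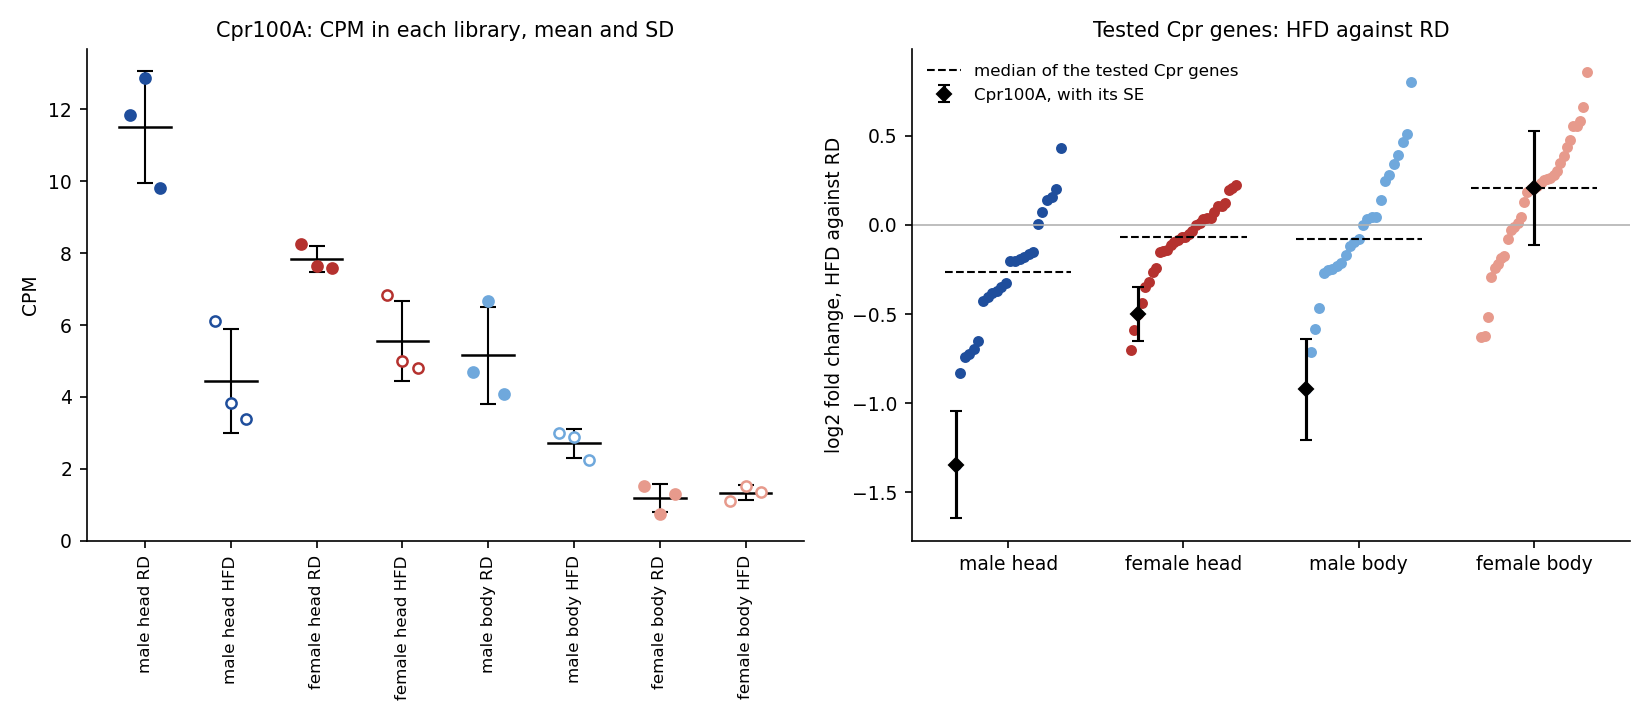
Left, CPM of Cpr100A in each library by group, with the mean and SD as bars and open points for HFD, where HFD lies below RD in male heads, female heads and male bodies and overlaps it in female bodies. Right, log2 fold change of HFD against RD for each Cpr gene tested in the 4 comparisons, in ascending order, with the median as a dashed line (-0.26, -0.07, -0.08 and 0.21) and Cpr100A with its SE as a diamond.

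Other genes linked with the cuticle were counted in the same fits, and the shares of all genes tested given above for each comparison apply to them too. They were listed by name, and some are also used outside the cuticle. The part of other organs, such as brain, eye and gut, in these counts was not tested. For head against body on RD those shares were 30.7% higher in the head and 42.8% higher in the body in males, and 41.3% and 45.5% in females. The 8 genes of tanning, the hardening and darkening of cuticle, were ple, Ddc, e, t, b, y, laccase2 and amd. In males 7 were tested, with 6 called higher in the head and 1 in the body, and in females 8, with 7 and 0. Their medians were 1.37 and 2.44, against -0.18 and -0.10 over all genes tested. The 10 genes of chitin synthesis, assembly and breakdown were kkv, CS-2, mmy, knk, rtv, serp, verm and the chitinases Cht2, Cht5 and Cht7. Of these, 4 were called higher in the head and 2 in the body in males, and 5 and 2 in females (medians 0.20 and 1.11). Of 28 other Rebers-Riddiford genes, 6 were tested in males (3 and 1) and 7 in females (4 and 3), with medians of 1.05 and 2.11. Of 9 obstructor-type chitin-binding genes, 7 were tested in males (4 and 2) and 5 in females (3 and 1), with medians of 1.0 and 1.65. Of 24 Tweedle genes, which encode another family of cuticle proteins, 4 were tested in males (2 and 2) and 3 in females (2 and 0) on RD, and on HFD 10 were tested in females, with 2 called higher in the head and 7 in the body.

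Between the sexes in heads on RD, 0 of the 10 chitin genes were called higher in males and 2 in females, with a median of -0.47 and all 10 estimates below 0, against 3.41% and 4.35% and a median of -0.01 over all genes tested. Of 2 Tweedle genes tested there 1 was called higher in males and 0 in females. The counts were 0 and 1 of 9 other Rebers-Riddiford genes (median -0.29) and 0 and 1 of 8 tanning genes (-0.34). For 5 obstructor genes they were 0 and 0 (-0.18). In bodies on RD, where 49.3% of all genes tested were called higher in males and 35.1% in females with a median of 0.40, the counts were 4 and 1 of 7 Tweedle genes (median 1.25), 5 and 0 of 7 tanning genes (1.38), 2 and 4 of 7 other Rebers-Riddiford genes (-3.43), 3 and 2 of 10 chitin genes (-0.11) and 2 and 1 of 6 obstructor genes (0.14). On HFD 13 Tweedle genes were tested in bodies, with 3 called higher in males and 7 in females (median -2.33). In the 4 comparisons of diet none of these lists held a called gene by edgeR, with unadjusted p under 0.05 for 0, 1, 4 and 2 of their tested members in the 2 head comparisons (males, females) and the 2 body comparisons (males, females).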

How the data were processed

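RNA of heads and bodies was sequenced by the authors as 100 base paired reads from stranded mRNA libraries and mapped with the default options of TopHat on an index from the iGenome package. The submitters' processing notes name featureCounts and the build dm6, while the paper's methods name a mouse annotation, and the strand and multiple-mapping settings are not given in the sources used here. The tables that the authors deposited hold raw counts per gene, in 1 table per sex, with a gene length, and are not normalized. All 70 Cpr symbols matched a gene of the BDGP6 annotation.

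Counts were fitted with edgeR 4.0.16 in R 4.3.3 (glmQLFit, glmQLFTest) for 12 pairs of groups and 6 interactions, on the genes kept by filterByExpr (minimum count 10, minimum total 15), with TMM and Benjamini-Hochberg adjustment over all genes tested at a threshold of 0.05. The SE is the log2 fold change divided by the square root of F. CPM used TMM over all 24 libraries, and TPM used the deposited lengths. The fits were tested on simulated data. Replicates are separate pools, and p-values measure the spread between these. The members and the lists of genes were chosen with earlier results of these data known. Named genes were the 10 highest by TPM on RD and the 3 highest of each RD group. In each sex and tissue comparison on RD they were the 5 largest called differences in each direction whose libraries do not overlap. HFD values are given for part of them. In diet comparisons they were genes with an unadjusted p under 0.05 whose libraries do not overlap, and Cpr100A. In interactions they were the 5 of smallest p. Other members named were chosen after their values were seen.

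The alternatives were RLE size factors, total counts, TMM over all libraries, 2 other count filters, DESeq2 1.42.0, limma-voom (limma 3.58.1), a replicate block, an unadjusted p and each library left out in turn. Interactions without male head HFD 3 or male body RD 3 were added after seeing the data. The labels number the replicates. Same-numbered libraries deviated together most clearly in male HFD heads and bodies (r from 0.259 to 0.736 over genes). Differently numbered libraries there gave -0.651 to 0.406, so the ranges overlapped. The replicate block called 20 genes in that comparison against 19. The pattern was weaker in female HFD heads and bodies, at 0.094 to 0.148, against -0.096 to -0.013 for differently numbered libraries. On RD same-numbered heads and bodies gave -0.457 to -0.038 in males and -0.029 to 0.099 in females. By the methods heads and bodies came from the same pool of flies. The main fits had no block, so any such pairing was left out of them. No formal test for outlying values was applied to groups of 3 libraries. With 3 against 3 libraries an exact permutation test cannot go below 0.1, so none was used. Figures were drawn with matplotlib 3.10.9.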

Additional observations from a re-analysis of the deposited data

Results flagged for a closer look

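The sex difference of a Cpr gene was set against itself in head and body, and the test of that difference passed the threshold for 15 Cpr genes on RD and 20 on HFD by edgeR's quasi-likelihood test with Benjamini-Hochberg adjustment. The genes of smallest p on RD were Cpr49Ah at 4.01, Cpr62Bb at -1.51, Cpr65Au at -1.13, Cpr76Bc at -1.96 and Cpr73D at -1.88, where a positive value is a male against female difference that is higher in the head than in the body on the log2 scale. On HFD they were Cpr62Bb at -1.61, Cpr49Ah at 3.23, Cpr76Bd at -3.42, Cpr50Ca at -4.18 and Cpr76Bc at -3.42. In the same fits 65.1% of all genes tested on RD and 47.4% on HFD passed.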

How the results depend on the processing

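Of 618 values of named genes under other settings, 610 kept their direction and their side of the threshold, and 422 of 454 did with a library left out. For 1 of the 8 that did not, Cpr72Ec in males on RD, DESeq2 gave no adjusted p. The 1 that reversed was Cpr100A in female bodies, HFD against RD, at -0.024 without female body RD 3 (0.21 otherwise, range with a library left out -0.024 to 0.42). The counts of called Cpr genes changed most with the filter of at least 10 counts in every library, which tests fewer genes: 13 and 10 for sex in bodies on RD and HFD, 0 for sex in heads on HFD, 10, 13, 5 and 15 for tissue in males on RD, females on RD, males on HFD and females on HFD, and 9 for sex by tissue on HFD. For sex in heads, DESeq2 called 11 on RD and 5 on HFD, every gene with at least 1 count gave 1 on HFD, and the replicate block, whose numbers did not pair these samples, gave 12 on RD and 0 on HFD, and the cause was not tested. At an unadjusted p the counts were 13 and 8 for sex in heads on RD and HFD, 1, 3 and 4 for diet in male heads, female heads and male bodies, and 1, 3, 3 and 1 for the interactions of diet with sex in heads and bodies and with tissue in males and females. With 1 library left out, the counts for sex in heads ran from 2 to 14 on RD and from 0 to 8 on HFD. Other scalings moved the median of all genes by up to -0.56 (RLE, sex by tissue on RD) and -0.49 (TMM over all 24 libraries, head against body, males on HFD), and directions of the named genes did not change under them. Depth limits the low members, since 3 counts are 0.117 to 0.224 CPM in a library, and 27 of the 70 genes passed the filter in none of the 12 pairs of groups.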
